A study of Mus musculus with 12 samples.

Results

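The nuclear genes for the subunits of oxidative phosphorylation (OXPHOS) were followed in RNA-seq libraries of mouse hind paw and whole dorsal root ganglion (DRG). They were taken by symbol. These were every listed symbol that starts with Nduf, the letter of a subunit series and a digit, with Cox4 to Cox8, with Uqcr or with Atp5, and Sdha to Sdhd. This gave 84 of the 22609 gene symbols in the files, 37 for complex I, 4 for complex II, 8 for complex III, 18 for complex IV and 17 for complex V. Symbols alone decided, so the 84 include Cox7a2l, a supercomplex assembly factor, and Atp5s and Atp5sl, which are named for ATP synthase without being fixed parts of it. Ndufa4 is now known as a complex IV subunit but is listed with complex I by its symbol, together with its paralog Ndufa4l2. Ndufab1 is a complex I subunit that the symbol rule leaves out.

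The study looked for sex differences in tissues that take part in pain, and 12 of its libraries are used here, 3 from females and 3 from males for each of the 2 tissues. All mice were C57BL/6J, aged 8 to 14 weeks and injected with 20 µl of saline in the paw according to the labels, while the methods describe naïve mice with the females in estrus. DRG libraries held the whole ganglion, and the paw biopsies are described as epidermis and dermis with some of the fat beneath and as not touching muscle. The series took tissue from 3 males and 3 females, so paw and DRG libraries may share mice, which the labels do not say. The main fits took the 12 libraries as separate. Sources differ on the library kit and read length, and what was deposited is the number of reads per gene. A normalized count is a read count divided by the library's median-of-ratios size factor, and RPKM is the rate of such counts per kilobase of exon, scaled by the reads on genes. Between 6866545 and 13470783 reads per library fell on genes.

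Keratinocyte markers were high in the paw libraries and neuronal and glial markers in the DRG libraries, and muscle markers were present in the paw. All 14 sensory neuron markers (median log2 fold change -9.13, paw over DRG) and all 8 glial markers (median -5.16) were higher in DRG. All 8 keratinocyte markers tested were higher in the paw (median 10.23), as were 6 of 6 hair follicle markers (median 7.06), 4 of 4 sweat gland markers tested (median 7.92), 5 of 7 white adipocyte markers (median 1.12) and 2 of 4 brown adipocyte markers tested (median 1.77). The 3 erythroid markers tested were higher in DRG (median -6.63). All 18 skeletal muscle fibre markers were higher in the paw (median 4.61), and none of the 18 was without a read in any library. Summed over these 18 genes, the normalized count was 125200, 48563 and 176430 in female paw libraries 1 to 3 and 53870, 247370 and 185730 in male paw libraries 1 to 3. In DRG the sum was 1181, 3326 and 5563 in the female libraries and 28014, 6788 and 907.4 in the male libraries. Muscle RNA was thus present in every paw library, lowest in female paw 2 and male paw 1, and male DRG 1 held more of it than the other DRG libraries. The most abundant muscle marker was Atp2a1 or Myh1 in each paw library and Myh4, Acta1 or Atp2a1 in each DRG library.

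Some libraries stood apart. In male paw 2, genes received 13.6% of the listed reads and 55.5% had no unique position, against 23.8% to 28.1% and 37.3% to 43.2% in the other libraries. Male paw 1 held the lowest paw value for 55 of the 80 OXPHOS genes that could be tested, and female paw 2 for 13. The highest paw value was in male paw 2 for 30 of the 80 genes and in male paw 3 for 22. Among DRG libraries, female DRG 1 held the lowest value for 54 genes and male DRG 1 the highest for 31. Hair follicle markers were nearly absent from female paw 2, where they summed to 73.97 normalized counts and 4 of 6 had no read, within the DRG range of 48.2 to 79.0, while the other paw libraries had 2279 to 11503. Female DRG 1 had a white adipocyte sum of 2399 normalized counts, against 621.3 to 902.6 in the other DRG libraries. Main results that rest on 1 library are given with and without it.

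Oxidative phosphorylation passes electrons from NADH and succinate through complexes I to IV to oxygen and uses the resulting proton gradient to drive ATP synthase, complex V. Most subunits are encoded in the nucleus and come from the same genes in every tissue, but several complex IV subunits exist as a widely expressed form and a form that striated muscle uses in its place. Neurons, glia, muscle fibres and epidermis differ in how much ATP they draw from mitochondria and how much from glycolysis, and each of these cell types is present in the tissue libraries in a different proportion.

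Promoter sequences are shown for the partners of the muscle isoform pairs, since the members of a pair differed in opposite directions between the tissues, and for Atp5g3, a further subunit gene with a motif match. RefSeq promoters (mouse build GRCm38.p6) covered 69 of the 84 genes, from 250 bases before to 50 bases after the start, and 4 motifs were searched on both strands. Capitals mark a match to GCGCATGCG (known as a site of nuclear respiratory factor 1, NRF1), CCGGAAG (the ETS family, with GA-binding protein), TCAAGGTCA (estrogen-related receptors) or AAGATGGC (YY1), read on either strand. Each line gives the 250 bases before the start, 5′ to 3′ on the gene's strand. Cox6a1 lies on the minus strand at chr5:115348959-115349208, Cox7a1 on the plus strand at chr7:30183921-30184170, Cox7a2 on the minus strand at chr9:79759854-79760103, Cox8a on the minus strand at chr19:7217617-7217866, Cox8b on the minus strand at chr7:140900447-140900696 and Atp5g3 on the minus strand at chr2:73911327-73911576.
Cox6a1: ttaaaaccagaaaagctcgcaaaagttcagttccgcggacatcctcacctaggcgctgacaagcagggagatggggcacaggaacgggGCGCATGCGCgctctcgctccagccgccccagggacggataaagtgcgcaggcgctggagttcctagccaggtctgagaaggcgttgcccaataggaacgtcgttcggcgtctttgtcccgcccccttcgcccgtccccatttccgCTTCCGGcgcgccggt
Cox7a1: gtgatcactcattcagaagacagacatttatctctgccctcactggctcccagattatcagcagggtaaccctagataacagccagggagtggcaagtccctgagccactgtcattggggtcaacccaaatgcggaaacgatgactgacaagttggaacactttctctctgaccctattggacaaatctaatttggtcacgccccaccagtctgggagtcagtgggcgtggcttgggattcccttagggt
Cox7a2: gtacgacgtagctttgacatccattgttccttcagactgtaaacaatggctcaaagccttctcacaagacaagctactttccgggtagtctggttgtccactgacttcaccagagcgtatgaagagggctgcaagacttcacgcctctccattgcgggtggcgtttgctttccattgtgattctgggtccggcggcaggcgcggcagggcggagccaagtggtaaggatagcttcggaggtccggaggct
Cox8a: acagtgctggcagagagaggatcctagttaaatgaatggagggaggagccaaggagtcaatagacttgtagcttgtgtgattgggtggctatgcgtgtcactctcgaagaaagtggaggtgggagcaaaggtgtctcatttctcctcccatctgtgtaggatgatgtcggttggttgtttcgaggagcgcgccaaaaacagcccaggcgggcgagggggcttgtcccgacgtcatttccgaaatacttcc
Cox8b: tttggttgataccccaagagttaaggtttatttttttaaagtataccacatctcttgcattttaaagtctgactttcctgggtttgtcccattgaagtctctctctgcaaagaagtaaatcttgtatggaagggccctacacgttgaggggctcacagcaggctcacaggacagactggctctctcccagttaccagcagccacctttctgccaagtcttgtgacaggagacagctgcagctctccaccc
Atp5g3: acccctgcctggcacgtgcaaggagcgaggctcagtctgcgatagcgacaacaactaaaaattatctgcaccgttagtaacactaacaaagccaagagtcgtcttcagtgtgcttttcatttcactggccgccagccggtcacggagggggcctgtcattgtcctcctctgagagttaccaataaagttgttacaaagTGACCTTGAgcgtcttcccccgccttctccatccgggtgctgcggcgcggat
In Cox6a1, the first stretch of capitals holds the NRF1 motif on both strands, overlapping, and the second holds the ETS motif. Cox7a1, Cox7a2, Cox8a and Cox8b hold no match in these 250 bases, and the 2 ETS matches of Cox8a lie outside the bases shown. The muscle forms Cox7a1 and Cox8b have 4 and 1 CpG in the bases shown, and the widely expressed forms Cox7a2, Cox8a and Cox6a1 have 14, 11 and 26. The GC content is 51.2% in Cox7a1, 47.2% in Cox8b, 54.8% in Cox7a2, 52.8% in Cox8a and 62.8% in Cox6a1.

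Over the 69 genes with a promoter, 31 held at least 1 of the 4 motifs in the 300-base window. The NRF1 motif was in 8 of the 69 (11.6%) and in 1.95% of all 27025 genes with a promoter, and its holders were Ndufa11, Ndufa8, Uqcr11, Uqcrc1, Cox6a1, Atp5g2, Atp5k and Atp5l. The ETS motif was in 16 of the 69 (23.2%) and in 9.93% of all genes, among them Sdhb, Sdhd, Uqcrh, Cox6b1 and Cox8a. The YY1 motif was in 11 (15.9%) and in 3.19% of all genes, among them Ndufa9, Ndufs7 and Atp5f1. Sdhd and Atp5g3 held the estrogen-related receptor motif (2.90%), found in 0.466% of all genes. The end of the ETS motif and the start of the YY1 motif share the letters AAG, and in no promoter of these genes did the matches overlap (0 overlaps). The median GC content was 56.0% for these promoters and 52.4% for all. A match describes letters in a window and not a bound site. Genes without an entry included Ndufa2, Ndufa4l2, Ndufb9, Ndufs1, Sdhc, Uqcrb, Uqcrc2, Uqcrq, Cox4i1, Cox4i2, Cox6a2, Cox6c, Cox8c and Atp5a1.

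Compared per length, transcripts of each complex reached high levels in both tissues. On the RPKM scale with the union of exons as length, Cox4i1, a complex IV subunit needed for its assembly, had the highest mean level of the 84 genes, 290.3 ± 16.3 in DRG and 225 ± 25.9 in the paw (SD, n = 6). Ndufa4 led the complex I symbols with a mean RPKM of 188 ± 16.5 in DRG and 116 ± 22.3 in the paw. In complex II the highest mean RPKM was that of Sdha, the flavoprotein that oxidizes succinate, with 66.7 ± 1.91 in DRG and 45.2 ± 7.13 in the paw. Uqcrc1, a core protein of complex III, led that complex with a mean RPKM of 70.2 ± 2.47 in DRG and 82.6 ± 4.08 in the paw. In complex V, Atp5b (the catalytic beta subunit) had a mean RPKM of 161 ± 8.47 in DRG and 138 ± 17.4 in the paw, and Atp5a1 (the alpha subunit) 160 ± 9.80 and 174 ± 18.5. With the length of a single coding transcript in place of the exon union, a choice made after seeing the data, the highest RPKM of complex III passed to Uqcrh in DRG (115) and Uqcrq in the paw (95.5), and that of complex V in the paw to Atp5b (306). Atp5b, already highest of complex V in DRG (357 by this length), then also stood above Cox4i1 as the highest of the 84 genes.

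Copies elsewhere in the genome bear on which reads are counted. A read that aligns to more than 1 place is not counted, and processed pseudogenes of OXPHOS genes are common in mouse. Of the 84 genes, 40 had at least 1 stretch of 50 bases of their coding transcript unchanged elsewhere in the mm9 genome, and 9 had at least 50% of such stretches copied. These 9 were Cox7a2l (53.7%), Uqcrb (61.5%), Cox5b (62.7%), Atp5h (66.3%), Cox7c (71.5%), Ndufs5 (80.0%), Atp5g1 (86.8%), Atp5l (89.4%) and Atp5g2 (100%). Their median RPKM by transcript length in DRG was 7.78, against 56.4 for the 31 genes with fewer copied stretches and 47.6 for the 44 with none. Ndufs5, an accessory subunit of complex I, had 0 reads in all 12 libraries. Atp5l had between 3 and 11 reads per library. Not all of the 9 were low, since Cox5b, Cox7a2l, Atp5h and Uqcrb had an RPKM by transcript length of 50.03, 38.7, 37.6 and 28.9 in DRG. With stretches of 100 bases, the other read length given in the sources, 5 genes stayed at 50% or more, Cox7c (68.3%), Ndufs5 (66.0%), Atp5g1 (67.4%), Atp5l (83.5%) and Atp5g2 (100%). Uqcrb then had 24.5%, Atp5h 32.9%, Cox7a2l 35.7% and Cox5b 37.5%. Values of these 5 genes are uncertain at either read length, and those of the other 4 mainly at the shorter one.

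Of the 15 genes with an RPKM by transcript length under 10 in DRG, 5 were among the 9 copied genes and 10 had no copied stretch. The 10 were the muscle forms Cox6a2, Cox7a1 and Cox8b, the further isoforms Ndufa4l2, Cox4i2 and Cox6b2, the testis forms Cox7b2 and Cox8c, and Atp5s and Atp5sl. Cox8c had 0 reads in all 12 libraries and Cox7b2 had 1 read in each of 3 DRG libraries, a level at which no fold change is given. Exons of 19 genes overlapped another gene entry (for Ndufb8 a second entry of the same symbol), for 4 of them over more than 25% of their length: Ndufa13 (30.2%, with Tssk6), Cox5a (38.7%, with Gm17596), Ndufb6 (39.0%, with 2010003O02Rik) and Atp5o (44.0%). The strand setting of the counting is not given in the sources used here, so reads of these pairs cannot be told apart.

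**Figure D1:**
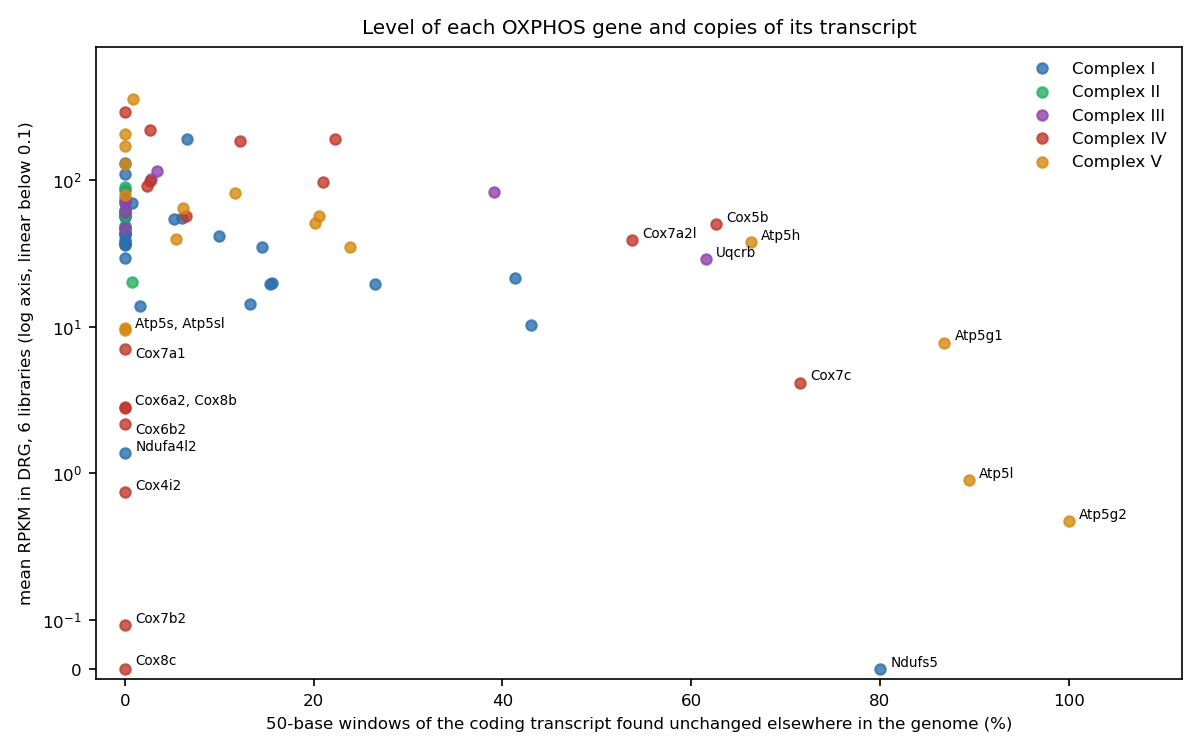
Mean RPKM in the 6 DRG libraries (vertical, log axis, linear below 0.1, length of a single coding transcript) against the share of 50-base stretches of that transcript found unchanged elsewhere in mm9 (horizontal, %). Each point is 1 of the 84 genes, coloured by complex. Of the genes with the most copied stretches, Ndufs5, Atp5l and Atp5g2 lie below 1 and Atp5g1 at 7.78, and the low genes at the left edge are tissue-restricted isoforms with Atp5s and Atp5sl.

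The first comparison asked how the OXPHOS genes differ between paw and DRG over both sexes. Most were somewhat lower in the paw, and a handful of isoforms were many times higher there. Of the 84 genes, 80 had at least 10 counts in at least 3 libraries and were tested, 76 of them passing in each tissue alone. Atp5g2, Cox4i2 and Cox8b passed through the paw and Cox6b2 through DRG, so their direction is partly set by the filter. Between the tissues 54 of 80 were called at an adjusted p below 0.05, against 85.7% of the 15666 genes tested. The paw was higher for 10 of the 80 (all genes: 42.6%) and DRG for 44 (all genes: 43.1%), with 26 not called. The median log2 fold change of the 80 was -0.25, paw over DRG, and -0.0025 over all genes tested. Over 2-fold differences were called for 6 genes higher in the paw (23.8% of all genes) and 3 higher in DRG (26.3% of all genes). Every paw library lay above every DRG library for 6 of the 80 genes (34.8% of all genes), and every DRG library above every paw library for 27 (37% of all genes). In bulk tissue, fewer cells of a type and less RNA per cell cannot be told apart. Leaving out male paw 2 and male DRG 1 was a choice made after seeing the data. It gave 10 genes higher in the paw and 43 in DRG (all genes: 83.9% called). Without male paw 1 these counts were 15 and 41 (all genes: 85.5% called). They were 6 and 33 in male libraries alone (78%) and 10 and 38 in female libraries alone (80%). With the level of the muscle markers as a covariate, a term largely confounded with tissue, they were 1 and 43. In that fit 69.7% of all genes were called, 48.2% of them higher in the paw. Its median log2 fold change was -0.56 for the OXPHOS genes and -0.02 for all.

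**Figure D2:**
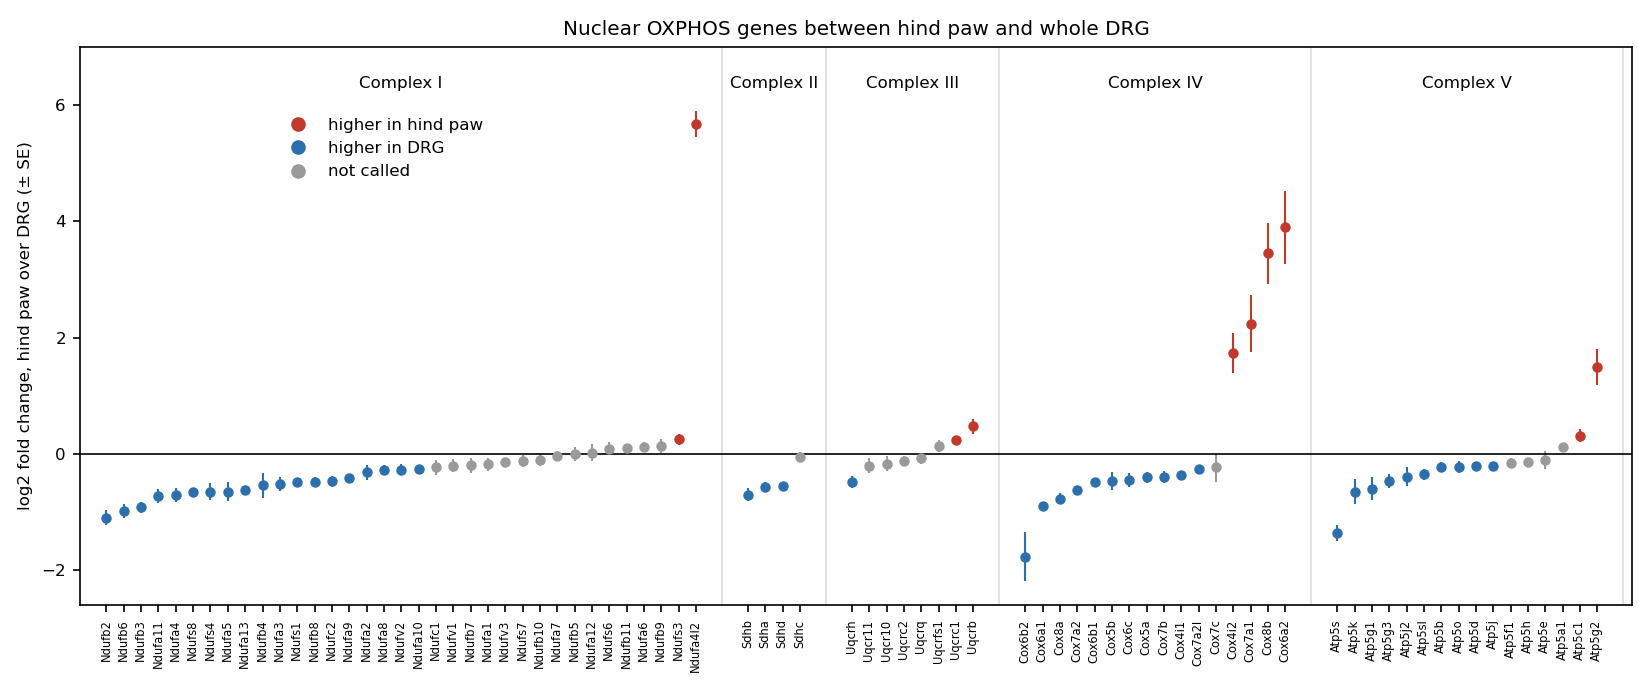
Log2 fold change of hind paw over DRG (vertical) with its standard error for 79 of the 80 genes tested, ordered within each complex. Colours give the call at an adjusted p below 0.05. Most genes lie between -1 and 0, while Ndufa4l2 (5.67), Cox6a2 (3.90), Cox8b (3.45), Cox7a1 (2.24), Cox4i2 (1.74) and Atp5g2 (1.49) lie far above.

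In complex I, which takes electrons from NADH, 19 of 36 tested genes were higher in DRG (all genes: 43.1%) and 2 in the paw (42.6%). The other 15 were not called, and the median log2 fold change was -0.27. Ndufa4l2, a paralog of Ndufa4 known as a gene induced by low oxygen, had normalized counts of 12.8, 26.7 and 11.6 in female DRG and 8.22, 15.6 and 10.1 in male DRG. In the paw its normalized counts were 747.6, 891.3 and 651.9 in females and 897.2, 512.2 and 559.2 in males. Every paw library was far above every DRG library, and the lowest paw values were those of male paw 2 and male paw 3, which held the most muscle RNA. The gene (ENSMUSG00000040280.9) spans mm9 bases 126951995 to 126954208 of chromosome 10. Its log2 fold change was 5.67 (SE 0.23, Benjamini-Hochberg adjusted p = 5.08e-11 from the quasi-likelihood test of edgeR), the largest of the 80 genes. Ndufa4 itself ran from 818.2 through a median of 1019 to 1051 in DRG and from 388.3 through 630.9 to 726 in the paw, with no overlap. It was lower in the paw, with a log2 fold change of -0.71 (SE 0.12). As a share of their summed RPKM, Ndufa4l2 made up 0.725% ± 0.319 in DRG and 37.6% ± 9.62 in the paw (SD, n = 6), while the sum was 190 ± 16.6 in DRG and 185 ± 17.9 in the paw.

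Among the accessory subunits of the membrane arm, Ndufb2, Ndufb6 and Ndufb3 fell furthest in the paw. The normalized count of Ndufb2 ran from 299.9 through a median of 337.8 to 384.9 in DRG and from 110.8 through 163.1 to 188.4 in the paw. Ndufb6 ran from 289.1 through 392.9 to 439.2 in DRG and from 123.8 through 208.7 to 245.9 in the paw, and Ndufb3 from 231.1 through 286.5 to 321.6 and from 134.3 through 144.9 to 175. For each of these 3 genes every DRG library was above every paw library. The log2 fold changes were -1.10 (SE 0.12) for Ndufb2, -0.98 (SE 0.12) for Ndufb6 and -0.92 (SE 0.09) for Ndufb3, with Benjamini-Hochberg adjusted p = 1.92e-06, 7.04e-06 and 8.51e-07 from the quasi-likelihood test of edgeR. The catalytic core varied. Ndufs1, which carries iron-sulfur clusters, was lower in the paw with a log2 fold change of -0.49 (SE 0.08), from 1152 to 1376 normalized counts in DRG and from 756.4 to 1036 in the paw. Ndufv1, which binds NADH, had a log2 fold change of -0.20 (SE 0.11) and was not called, but was called lower in the paw at -0.27 without male paw 3, and was at -0.12 without female paw 2. With the muscle marker covariate, largely confounded with tissue, it was also called, at -0.55. Ndufs3 was higher in the paw with a log2 fold change of 0.25 (SE 0.09) and overlapping tissues, and 43.0% of its 50-base stretches had a copy elsewhere. Its call was lost without female DRG 3, male DRG 2 or male DRG 3, and with the level of the muscle markers as a covariate, where it was at 0.07. Ndufa2 was lower in the paw by a small margin (log2 fold change -0.32, SE 0.12), and this call was lost without the pair of libraries that stood apart (Benjamini-Hochberg adjusted p = 0.0818 from the quasi-likelihood test of edgeR) and without female DRG 2, male DRG 1, male DRG 3, female paw 2 or male paw 1 alone.

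Complex II oxidizes succinate and is shared with the tricarboxylic acid (TCA) cycle. Of its 4 genes, 3 were lower in the paw (all genes: 43.1%), and the median log2 fold change was -0.56. Sdhb, the iron-sulfur subunit, ran from 637.3 through a median of 704.3 to 820.8 normalized counts in DRG and from 331.7 through 465 to 507 in the paw. Sdha ran from 2649 through 2796 to 2864 in DRG and from 1553 through 1864 to 2362 in the paw, and Sdhd, a membrane anchor, from 615.7 through 653 to 697.7 and from 372.1 through 465.7 to 495.8. The tissues did not overlap for any of these 3 genes. Their log2 fold changes were -0.71 (SE 0.11), -0.57 (SE 0.09) and -0.56 (SE 0.07), with Benjamini-Hochberg adjusted p = 6.23e-05, 3.46e-05 and 6.34e-06 from the quasi-likelihood test of edgeR. The other anchor, Sdhc, had mean normalized counts of 680 ± 41.9 in DRG and 656 ± 77.5 in the paw (SD, n = 6) and was not called (log2 fold change -0.05, SE 0.08).

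Complex III passes electrons from quinol to cytochrome c, and 5 of its 8 genes were not called (median log2 fold change -0.10). The share called was 37.5%, beside 85.7% of all genes tested. Uqcrc1 ran from 1194 through a median of 1242 to 1295 normalized counts in DRG and from 1334 through 1485 to 1550 in the paw. Every paw library was above every DRG library, which no other subunit outside the isoform families showed, at a log2 fold change of 0.23 (SE 0.05). With the muscle marker covariate, largely confounded with tissue, Uqcrc1 was at 0.11 and not called. Uqcrb was also higher in the paw (0.48, SE 0.13), from 128.5 to 197.5 normalized counts in DRG and from 149.7 to 282.2 in the paw, and is uncertain because of its copies. With the same covariate its log2 fold change was -0.035 and it was not called. Uqcrh, the hinge protein, was lower in the paw without overlap (-0.48, SE 0.11). The Rieske protein Uqcrfs1 had a log2 fold change of 0.13 (SE 0.10) and was not called, but was at 0.22 without male paw 1. Without male paw 3 it was at 0.06 and not called.

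Complex IV, cytochrome c oxidase, held the isoform pairs, and 15 of its 16 tested genes were called (all genes: 85.7%). Of these, 11 were lower and 4 higher in the paw (all genes: 43.1% and 42.6%). The median log2 fold change of the 16 was -0.40. Cox6a2, Cox7a1 and Cox8b are the forms of heart and skeletal muscle, and all of these were higher in the paw. Cox6a2 (ENSMUSG00000030785.7, chromosome 7 of mm9 from 135348950 to 135349880) had normalized counts of 1.97, 3.44 and 20.0 in female DRG 1 to 3 and 68.3, 25.1 and 0 in male DRG 1 to 3. In the paw it had 250.1, 83.0 and 339.8 in females 1 to 3 and 118.9, 402.6 and 309.9 in males 1 to 3. Every paw library was above every DRG library, female paw 2 and male paw 1 were the lowest of the paw, and male DRG 1 was the highest DRG library, as for the summed muscle markers. Its log2 fold change was 3.90 (SE 0.63, Benjamini-Hochberg adjusted p = 6.72e-05 from the quasi-likelihood test of edgeR), 4.65 without female DRG 3, 3.62 without male DRG 3 and 4.45 without male DRG 1 and male paw 2. It was 4.78 in female libraries alone and 3.04 in male libraries alone.

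Cox7a1 (ENSMUSG00000074218.2, chromosome 7 of mm9 from 30969190 to 30971047) had 13.8, 29.2 and 25.2 normalized counts in female DRG and 47.7, 23.9 and 23.5 in male DRG. In the paw the values were 164.2, 36.1 and 170.9 in females and 32.4, 210.7 and 175.6 in males. The tissues overlapped, since female paw 2 and male paw 1 lay below male DRG 1, and the log2 fold change was 2.24 (SE 0.49, Benjamini-Hochberg adjusted p = 8.50e-04 from the quasi-likelihood test of edgeR). Cox8b (ENSMUSG00000025488.8, chromosome 7 of mm9 from 148084842 to 148086345) had 16.7, 6.88 and 6.305 in female DRG and 28.8, 3.59 and 3.35 in male DRG, and in the paw 117, 57.7 and 176.8 in females and 48.5, 214.1 and 164.2 in males. Here the tissues did not overlap, and the same paw libraries were lowest. The log2 fold change of Cox8b was 3.45 (SE 0.52, Benjamini-Hochberg adjusted p = 3.74e-05 from the quasi-likelihood test of edgeR), and 4.40 without male DRG 1. Cox8b passed the count filter only through the paw, so its direction is partly set by the filter.

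The widely expressed partner of each muscle form differed in the other direction. Cox6a1 ran from 1005 through a median of 1142 to 1195 normalized counts in DRG and from 532.7 through 575.5 to 690.9 in the paw. Cox8a ran from 489.5 through 567.9 to 613.9 and from 270.6 through 316.7 to 441.7, and Cox7a2 from 667.7 through 728.5 to 796.2 and from 408.5 through 478.3 to 519.7. Every DRG library was above every paw library for all 3 partners. The highest paw value of Cox6a1 and of Cox8a was that of male paw 1, a library low in muscle markers, while for Cox7a2 that library was the lowest of the paw. Log2 fold changes were -0.90 (SE 0.07) for Cox6a1, -0.77 (SE 0.09) for Cox8a and -0.63 (SE 0.07) for Cox7a2, with Benjamini-Hochberg adjusted p = 7.73e-08, 4.99e-06 and 2.37e-06 from the quasi-likelihood test of edgeR.

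As a share of the summed RPKM of its pair, Cox6a2 made up 1.76% ± 2.23 in DRG and 29.9% ± 13.3 in the paw (SD, n = 6). The shares were 7.02% ± 2.26 and 33.5% ± 15.5 for Cox7a1 against Cox7a2, and 2.78% ± 2.47 and 35.9% ± 15.4 for Cox8b against Cox8a. The summed RPKM of a pair differed less than its parts, with 97.4 ± 9.62 in DRG and 92.4 ± 22.4 in the paw for Cox7a, 99.4 ± 7.83 and 90.01 ± 12.3 for Cox8, and 152 ± 11.2 and 115 ± 10.3 for Cox6a. With the muscle marker covariate, the log2 fold change was -0.13 for Cox6a2, -0.78 for Cox7a1 and 0.13 for Cox8b and none of the 3 was called (Benjamini-Hochberg adjusted p = 0.834, 0.397 and 0.885 from the quasi-likelihood test of edgeR). In the same fit Cox6a1, Cox7a2, Cox8a and Ndufa4 stayed lower in the paw, and Ndufa4l2 stayed higher at 6.77. The covariate is largely confounded with tissue, so a call kept or lost in this fit does not tell muscle and tissue apart.

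**Figure D3:**
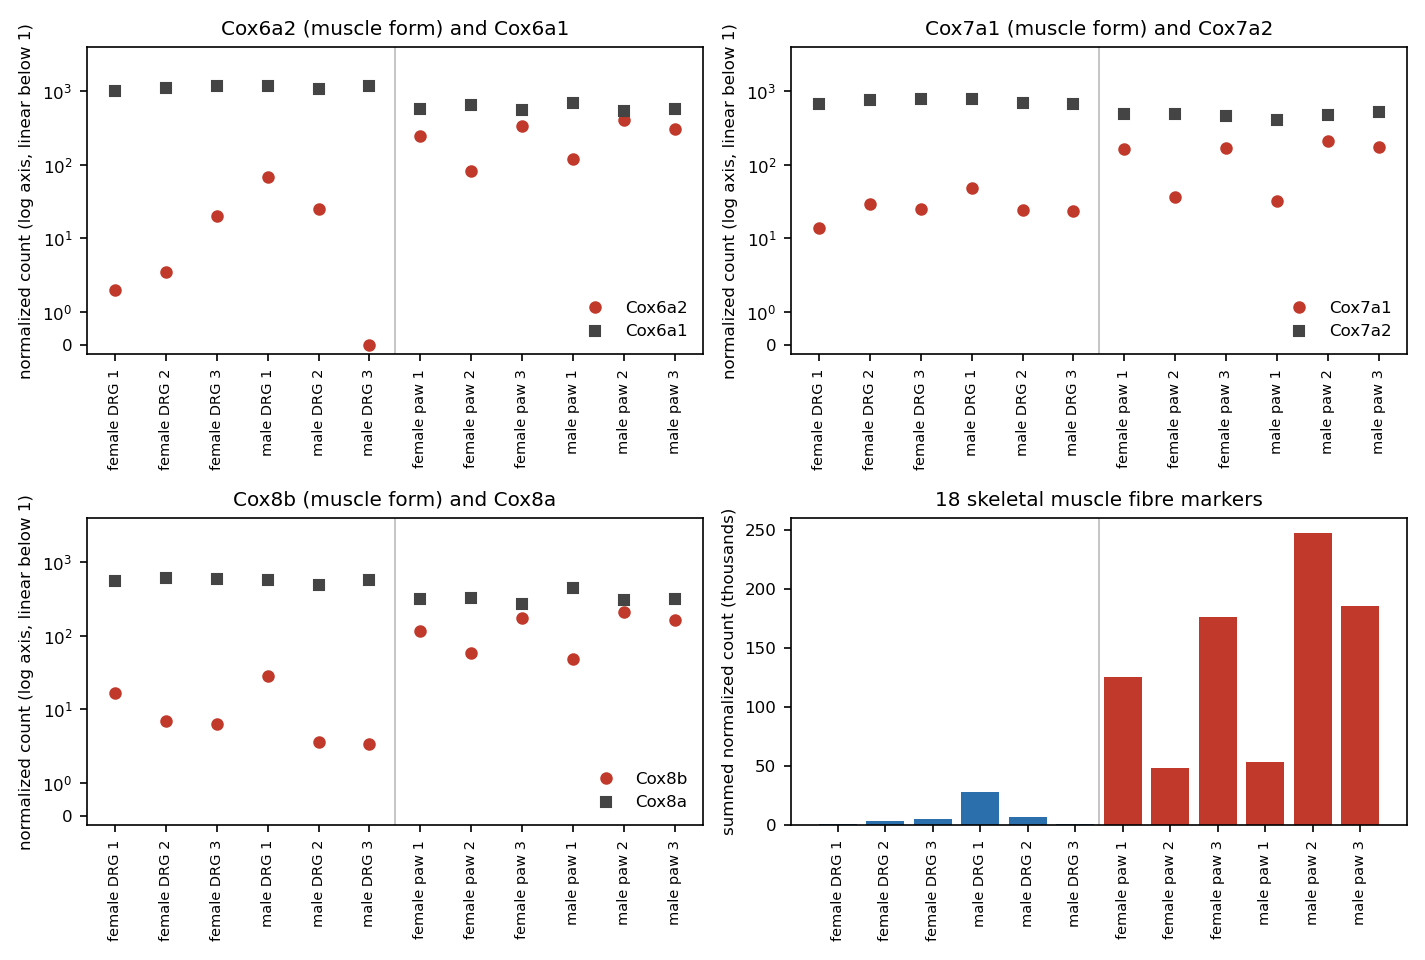
Normalized counts (vertical, log axis, linear below 1) of each muscle form of complex IV and its widely expressed partner in the 12 libraries, with the summed normalized count of 18 muscle markers (bars, axis from 0). Points and bars are single libraries. The muscle forms are low in female paw 2 and male paw 1, where the marker sum is also lowest among paw libraries, and the partners lie higher in every DRG library.

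The other complex IV isoforms are known from other tissues than muscle. Cox4i2, a form known from lung, had 3.93, 6.88 and 8.41 normalized counts in female DRG and 9.87, 4.79 and 1.12 in male DRG, and 23.6, 13.5 and 28.6 in female paw and 20.2, 20.6 and 16.7 in male paw. The tissues did not overlap at these low counts, and the log2 fold change was 1.74 (SE 0.34, Benjamini-Hochberg adjusted p = 3.73e-04 from the quasi-likelihood test of edgeR). Cox4i2 passed the count filter only through the paw, so its direction is partly set by the filter. With the muscle marker covariate, largely confounded with tissue, its log2 fold change was 0.15 and it was not called. Cox4i2 made up 1.07% ± 0.258 of the Cox4i RPKM in the paw and 0.239% ± 0.129 in DRG (SD, n = 6), and Cox4i1 was lower in the paw with a log2 fold change of -0.37 (SE 0.08). Cox6b2, a form known from testis, was higher in DRG, with 10.1 to 15.8 normalized counts there and 0.878 to 10.5 in the paw. The highest paw value, in male paw 1, lay within the DRG range, and the log2 fold change was -1.77 (SE 0.42) with all libraries and -2.52 without male paw 1. Cox6b2 passed the count filter only through DRG. Its partner Cox6b1 had a log2 fold change of -0.48 (SE 0.07). Cox5a (-0.40, SE 0.10), Cox5b (-0.47, SE 0.15) and Cox7b (-0.40, SE 0.10) were lower in the paw with overlap, and Cox7a2l (-0.26, SE 0.05) was lower without overlap. Cox7c, with 19.7 to 30.2 normalized counts in DRG and 10.5 to 31.6 in the paw, was not called (-0.24, SE 0.25), but was called lower in the paw at -0.51 without male paw 3.

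In complex V, the ATP synthase, 10 of 16 tested genes were lower in the paw (all genes: 43.1%) and 2 were higher (42.6%). The other 4 were not called, and the median log2 fold change was -0.22. The catalytic subunit Atp5b ran from 6772 through a median of 7414 to 7851 normalized counts in DRG and from 5174 through 6436 to 7251 in the paw. The tissues overlapped, with a log2 fold change of -0.22 (SE 0.09), and the call was lost without female DRG 2, female DRG 3, male DRG 1, female paw 2 or male paw 1. Atp5a1 ran from 4833 through 5411 to 5835 in DRG and from 5099 through 5944 to 6612 in the paw and was not called (0.12, SE 0.08), but was higher in the paw at 0.17 without male paw 1, and was at 0.09 without female DRG 1 and not called. Atp5c1, the gamma subunit of the rotor, was higher in the paw (0.31, SE 0.11). With the muscle marker covariate, largely confounded with tissue, it was at -0.15 and not called. Atp5d, the delta subunit, was lower without overlap (-0.22, SE 0.05). Atp5s, a factor that couples the membrane part to the catalytic part, ran from 120 through 147.5 to 179.3 in DRG and from 42.1 through 60.1 to 75.4 in the paw. Every DRG library was above every paw library, and its log2 fold change of -1.36 (SE 0.14, Benjamini-Hochberg adjusted p = 8.05e-07 from the quasi-likelihood test of edgeR) was the largest fall in this complex.

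Atp5g1, Atp5g2 and Atp5g3 encode the same mature c subunit of the rotor ring with different leader peptides. Atp5g3 was the most abundant of these, with a mean RPKM by exon union of 55.7 ± 4.51 in DRG and 40.3 ± 7.77 in the paw (SD, n = 6), and was lower in the paw (log2 fold change -0.47, SE 0.12). Atp5g1 was lower in the paw (-0.60, SE 0.20) and Atp5g2 higher (1.49, SE 0.31), but both have near-identical copies over most of the transcript, with 1 to 13 reads of Atp5g2 per library, and their values are uncertain. Atp5g2 also passed the count filter only through the paw.

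Related genes were counted in the same way, and no test compared a list with the subunits. Of 24 assembly factors tested, 15 were higher in DRG and 6 in the paw, with a median log2 fold change of -0.40. Tmem126b (-1.68, SE 0.14) and Ndufaf3 (-1.53, SE 0.15), which help to build complex I, were lower in the paw, and Acad9 (1.96, SE 0.07), which acts in the same assembly and in fatty acid oxidation, and Sdhaf1 (0.67, SE 0.13), for complex II, were higher. Of 13 TCA cycle genes, 7 were higher in DRG and 2 in the paw (median -0.22). Sucla2 and Suclg2 encode alternative subunits of succinyl-CoA ligase that make ATP and GTP, and they differed in opposite directions (-1.08, SE 0.13, and 1.75, SE 0.09). Idh3b was lower in the paw (-0.51, SE 0.09) and citrate synthase Cs higher (0.41, SE 0.06). Of 11 carriers and neighbours tested, 5 were higher in DRG and 2 in the paw (median 0.0059), with Cycs (-1.21, SE 0.12), the cytochrome c that links complexes III and IV, and Vdac3 (-0.98, SE 0.14) lower and Slc25a5 (0.69, SE 0.06), an ADP/ATP carrier, and Vdac1 (0.23, SE 0.09) higher in the paw.

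Of 13 regulators of mitochondrial genes, 7 were higher in the paw, 2 were higher in DRG and 4 were not called (median 0.39). The coactivator Ppargc1a had a mean normalized count of 509.7 ± 41.6 in DRG and 164 ± 51.2 in the paw (SD, n = 6), a log2 fold change of -1.65 (SE 0.19). Its relative Pprc1 was higher in the paw (1.47, SE 0.08), as was Gabpa (0.83, SE 0.05), part of GA-binding protein, while Tfb1m, a methyltransferase of mitochondrial ribosomal RNA, was lower (-1.28, SE 0.11). Of 74 mitochondrial ribosome genes tested, 23 were higher in each tissue and the median was 0.04, from Mrps6 (-2.19, SE 0.11) and Mrps33 (-2.04, SE 0.18) to Mrps18b (1.15, SE 0.17). Of 71 cytosolic ribosome genes tested, 68 were higher in the paw and Rpl15 alone was higher in DRG (-0.67, SE 0.12), with a median of 1.55. Glycolysis had 8 of 18 genes higher in the paw and 6 higher in DRG (median 0.29). Hk2 (4.13, SE 0.22) and the muscle enolase Eno3 (3.82, SE 0.56) were higher in the paw, and the neuronal enolase Eno2 (-6.64, SE 0.12) and Ldhb (-3.55, SE 0.13) in DRG. These counts describe the lists beside the 42.6% of all genes higher in the paw and the 43.1% higher in DRG.

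**Figure D4:**
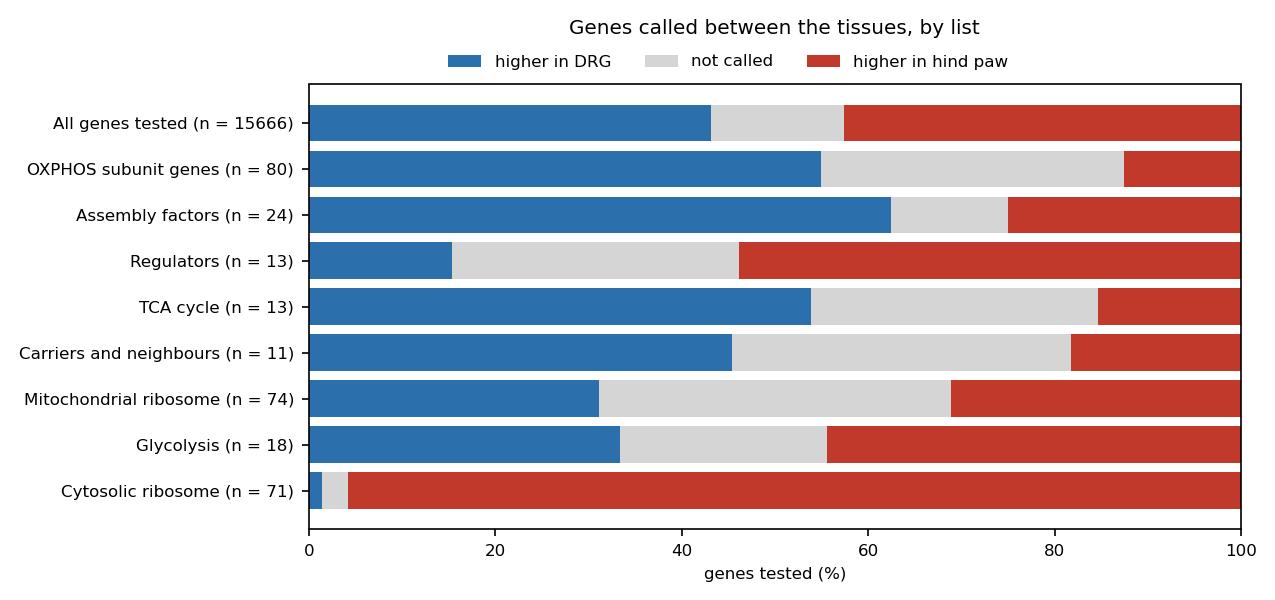
Share of the tested genes of each list (horizontal, %) called higher in DRG, called higher in the paw or not called, with the number tested in brackets. The OXPHOS genes split 44, 10 and 26 of 80, and the cytosolic ribosome genes 1, 68 and 2 of 71.

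The study compared females with males, chiefly in sensory neurons, with whole DRG and hind paw beside them. In neurons enriched from DRG and trigeminal ganglia it reported genes of every OXPHOS complex as higher in males, by unadjusted p-values. Those neuron libraries are not used here. In the hind paw no OXPHOS gene was called between the sexes: 0 of 79 tested by edgeR's quasi-likelihood test and 0 by DESeq2, with 2 at an unadjusted p below 0.05. Over all genes 0.154% were called by edgeR's test and 1.45% by DESeq2, and 9.74% had an unadjusted p below 0.05 in edgeR's test. The log2 fold changes, females over males, ran from -0.27 to 0.56 with a median of 0.05, 45 above 0 and 34 below, and their median SE was 0.18. That median turned to -0.09 without male paw 1 and to -0.02 without female paw 3. With the muscle marker covariate 7 of the 79 genes had an unadjusted p below 0.05 and 0 were called. Of all 14316 genes in that fit, 2006 had such a p and 313 (2.19%) were called. Of the muscle markers 17 of 18 had an estimate below 0 (median -0.46, 0 at an unadjusted p below 0.05), with a median of -0.0080 without male paw 2. So had all 6 hair follicle markers (median -2.24, 3 at that p, and -1.66 without female paw 2), with 0 called in either list. Of the 8 keratinocyte markers, 3 had an estimate above 0 and 5 below (median -0.09). At that p, 1 was higher in females and 2 in males, with 0 called. The OXPHOS genes at an unadjusted p below 0.05 in the main fit were Ndufb6 and Uqcrb. Ndufb6 had normalized counts of 235, 213.8 and 245.9 in female paw and 123.8, 147.3 and 203.7 in male paw. Uqcrb had 282.2, 254.4 and 272.6 in female paw and 149.7, 191.9 and 250.2 in male paw. For these 2 genes, and for no other of the 79, every female library was above every male library, beside 15.2% of all genes with no overlap in either direction. Their log2 fold changes were 0.56 (SE 0.19) and 0.46 (SE 0.19), with Benjamini-Hochberg adjusted p = 0.399 and 0.485 from the quasi-likelihood test of edgeR. Male paw 1 gave the lowest value of both, and the log2 fold changes were 0.38 and 0.27 without it. Cox5b followed with a log2 fold change of 0.47 (SE 0.25) and overlapping sexes, and 0.20 without male paw 1. Ndufb6 shares exon sequence with a gene on the other strand, and Uqcrb and Cox5b have copies, as described above.

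In whole DRG 0 of 77 tested OXPHOS genes were called between the sexes by edgeR's quasi-likelihood test and 0 by DESeq2. In edgeR's test 0 had an unadjusted p below 0.05. Over all genes 0.0484% were called by edgeR's test and 0.104% by DESeq2, with 6.01% at the unadjusted p in edgeR's test. The spread was smaller than in the paw, with a median SE of 0.08, and 71 of the 77 log2 fold changes lay within 0.2 of 0. The median was -0.04, with 24 above 0 and 53 below, and it was -0.0020 without female DRG 1 and -0.0025 without male DRG 1. No cell type marker was called in the same comparison (0 in each list by edgeR's quasi-likelihood test). The estimates of all 14 sensory neuron markers were below 0 (median -0.14, 4 at an unadjusted p below 0.05). Their median was -0.07 without female DRG 1 and -0.08 without male DRG 1. Those of the 8 glial markers were split 4 and 4, with 2 at that p, both below 0. Without male DRG 1, 1 glial marker was above 0 and 7 below. Of the 8 keratinocyte markers, 6 were below 0 (median -0.59, 0 at that p). The estimates of all 18 muscle markers were below 0 (median -1.89, 2 at that p), but the median was -0.13 without male DRG 1. All 6 white adipocyte markers tested were above 0 (median 1.20, 2 at that p), with a median of 0.17 without female DRG 1, and all 3 erythroid markers tested were above 0 (median 1.27, 3 at that p). The sexes did not overlap for Ndufb4, Ndufs3, Sdhc and Cox5a, each higher in males, beside 12.3% of all genes with no overlap. Cox5a, which had 682.5, 722.2 and 633.6 normalized counts in females and 820, 750.3 and 725.3 in males, had a log2 fold change of -0.15 (SE 0.08), and -0.09 without female DRG 3. Ndufa2 had one of 0.23 (SE 0.11) with overlap, and 0.13 without male DRG 2. The widest value was that of Cox6a2 (-1.97, SE 1.08), whose male values of 68.3, 25.1 and 0 span those of all females. Without male DRG 1 the gene no longer had 10 counts in 3 DRG libraries, so no value is left. Its order over the male libraries was that of the summed muscle markers, 28014, 6788 and 907.4, and the part of muscle RNA in this value was not tested. Ndufa4l2 (0.67, SE 0.43) lay at the other end, from 8.22 to 26.7 normalized counts. The highest of these was female DRG 2, and the other female libraries, at 12.8 and 11.6, lay within the male range of 8.22 to 15.6.

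The X-linked genes Ndufa1, Ndufb11 and Cox7b were called between the sexes in neither tissue. Their log2 fold changes, females over males, were 0.09 (SE 0.17), 0.12 (SE 0.14) and -0.06 (SE 0.18) in the paw and 0.07 (SE 0.14), -0.07 (SE 0.09) and -0.07 (SE 0.07) in DRG. The test of whether the sex difference itself differed between the tissues called 0 of 80 OXPHOS genes by edgeR's quasi-likelihood test and 0 by DESeq2. Over all genes these tests called 0.0128% and 0.23%. An unadjusted p below 0.05 was found for 1 of the 80, Ndufb6, against 7.76% of all genes, with a difference of 0.69 on the log2 scale. Uqcrb (0.47, SE 0.26) and Cox8a (-0.34, SE 0.19) had the next lowest p-values. Without male paw 1 these differences were 0.29 and -0.14. With 3 libraries of each sex, the median SE was 0.18 in the paw and 0.08 in DRG, and differences above it could also go uncalled. Ndufb6 in the paw, at 0.56 (SE 0.19), had a Benjamini-Hochberg adjusted p = 0.399 from the quasi-likelihood test of edgeR. The smallest difference that could be called was not estimated.

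**Figure D5:**
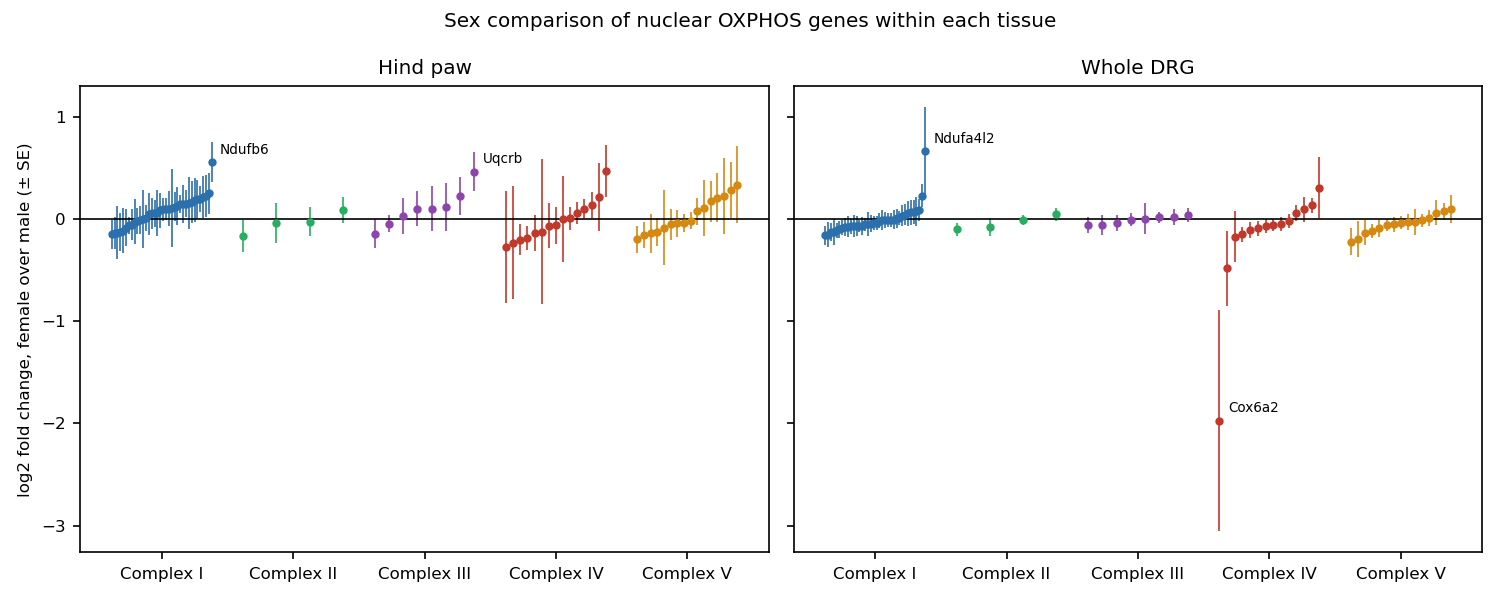
Log2 fold change of females over males (vertical) with its standard error for the OXPHOS genes tested in the hind paw (left, 79 genes) and in whole DRG (right, 77 genes), ordered within each complex. No gene was called in either tissue. Ndufb6 (0.56) and Uqcrb (0.46) are marked in the paw, and Ndufa4l2 (0.67) and Cox6a2 (-1.97) in DRG.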

How the data were processed

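Whole DRG and hind paw of female and male mice were sequenced in 12 libraries. The authors aligned the reads to mm9 with TopHat2 and deposited raw counts per gene from HTSeq. Grouping followed titles and source labels, and 5 categories of uncounted reads were left out. A gene needed 10 counts or more in 3 libraries, and testing used edgeR 4.0.16 with its quasi-likelihood F-test (R 4.3.3, limma 3.58.1), median-of-ratios factors and Benjamini-Hochberg adjustment over all genes tested. The standard error is the absolute log2 fold change over the root of F. The authors used DESeq, which was not run here. The tissue contrast and the interaction used all 12 libraries, and each sex contrast used the 6 of its tissue. A check of the test on simulated data is not reported here, and no result rests on it. Chi-square per degree of freedom between libraries of a group was between 2.42 and 79.8, so no pair was a duplicate. Depth of 6866545 to 13470783 reads limits low genes. The SE and SD values include the spread between libraries as well as counting error. RPKM was computed from normalized counts, GENCODE mm9 exon lengths and reads on genes. Copies were searched with blastn 2.17.0. The members and lists (assembly factors, regulators, TCA cycle, carriers and neighbours, mitochondrial and cytosolic ribosome, glycolysis and cell type markers) were chosen with earlier results of these data known. Genes named are the isoform families, core subunits, the 5 largest changes called per direction, the highest RPKM per complex, the 3 lowest p-values per sex comparison and up to 2 per direction of each list, and 1 gene planned by this rule is not reported. Others, chosen after their values were seen, are the remaining called or non-overlapping members, X-linked members and low or copied members. Alternatives were TMM, DESeq2 1.42.0, no filter, a replicate block, each sex alone, a 2-fold criterion, a muscle marker covariate, a single fit for the sex contrasts, unadjusted p-values and leaving out each library.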

Additional observations from a re-analysis of the deposited data

How the results depend on the processing

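Between the tissues, 54 OXPHOS genes were called, and 49 to 58 in fits lacking any 1 library, with 9 to 15 higher in the paw and 39 to 48 higher in DRG. TMM, DESeq2 and no filter gave 10 higher in the paw as did female libraries alone, and male libraries alone gave 6. A 2-fold criterion left 9 genes, 6 higher in the paw and 3 in DRG. With the muscle marker covariate 1 gene was higher in the paw and 43 in DRG (all genes: 69.7% called). Log2 fold changes turned to -0.13 for Cox6a2, -0.78 for Cox7a1, -0.16 for Uqcrfs1, -0.19 for Atp5a1, -0.15 for Atp5c1 and -0.035 for Uqcrb. The covariate is largely confounded with tissue, and the cause was not tested. It lost 9 of the calls higher in the paw, among them Cox4i2 (0.15), Cox8b (0.13), Uqcrc1 (0.11), Ndufs3 (0.07) and Atp5g2 (1.31), and 5 of those higher in DRG, among them Cox6b2 (-1.49) and Ndufa2 (-0.57), and it gained 4, Ndufv1 (-0.55), Ndufb7 (-0.66), Uqcr11 (-0.65) and Uqcrc2 (-0.47). Male libraries alone lost 3 and 12, among them Uqcrb (0.25), Atp5c1 (0.33), Cox6b2 (-1.09), Cox7b (-0.40), Atp5g1 (-0.66), Atp5b (-0.20) and Ndufa2 (-0.31). Female libraries alone lost 6 of those higher in DRG, among them Cox7a2l (-0.18) and Cox5b (-0.27). Atp5g2 was not tested in either sex alone, nor without female paw 1, female paw 3 or male paw 1. Atp5b and Ndufa2 each lost their call in 5 fits without 1 library. Atp5o (-0.22) and Atp5j2 (-0.39) lost theirs in more of these fits, and Atp5o also with TMM (-0.21). Without male paw 1, Uqcrfs1 and Atp5a1 were called higher in the paw. Over the genes named by rule, 620 of the tissue values under the alternatives kept direction and call, 25 lost and 5 gained a call, and 5 turned. For sex in the paw the count was 0 under each single alternative and 2 at an unadjusted p below 0.05. It was 4 of 79 with the replicate block and the muscle covariate together, beside 5.85% of all genes. That fit was added after seeing the data and leaves 1 residual degree of freedom. At the unadjusted p, leaving out 1 library gave between 0 and 10 genes. The 10 of 78 came without male paw 1, beside 1524 of all 14160 genes. In DRG and for the interaction 0 were called throughout. The unadjusted p gave 0 in DRG, and up to 2 without 1 library. The 2 came without female DRG 3 (all genes: 1223 of 14343) or male DRG 3 (806 of 14382). For the interaction it gave 1 (Ndufb6), and up to 8 without 1 library. The 8 came without male paw 3, beside 1417 of all 15588 genes. Labels do not tie equal numbers to a mouse, so the numbers were not taken as pairs. Deviations of equally numbered paw and DRG libraries of a sex correlated between -0.275 and 0.132. With so few libraries of unlike tissues, this cannot show whether they share a mouse. With the replicate block 10 genes were higher in the paw and 44 in DRG, with Ndufv1 gained (-0.22) and Atp5o lost (-0.23), and 0 were called by sex. Depth limits Cox4i2, Cox6b2, Cox7c and Atp5g2, which had few reads per library.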
